A study of Saccharomyces cerevisiae with 16 samples.

Results

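The comparison described here sets the budding yeast triple mutant set1htz1sir2 against the single mutant set1. Its members are 8 of the 16 two-colour arrays of the series, 4 of set1htz1sir2 and 4 of set1, taken by their titles. By their labels both groups lack SET1, and they differ in the further loss of HTZ1 and SIR2. Other differences between the strains, such as markers, cannot be told apart from it. Each array carried cDNA of a mutant culture and of a paired wild-type culture, both grown in rich medium with extra tryptophan and adenine and collected in exponential growth. In both groups arrays 1 and 3 had Cy5 on the mutant cDNA, while arrays 2 and 4 had Cy3 on it, and the deposited description calls the 4 arrays of a group independent biological replicates. The value on each array is the log2 ratio of mutant to wild type, and the difference is the mean of set1htz1sir2 minus the mean of set1, so that a positive difference means a higher ratio in the triple mutant. Neither the labels nor the deposited description name the strain background, the mating type or the markers. The double mutant set1htz1, also on 4 arrays, divides the difference into a step with HTZ1 lost (set1htz1 minus set1) and a step with SIR2 lost (set1htz1sir2 minus set1htz1). The other 4 arrays carry H3K4A, which by its name has alanine in place of lysine 4 of histone H3. They enter the fit through the shared dye term, the spread and the choice of genes tested, and the deposited description says that their cDNA was made from total RNA, whereas that of the other mutants was made from mRNA. Each step shares 4 arrays with the whole difference, so the steps are given side by side with it and are no independent evidence.

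Set1 is the catalytic subunit of COMPASS, the complex that methylates lysine 4 of histone H3. HTZ1 encodes the histone variant H2A.Z, which the SWR1 complex places in nucleosomes next to promoters and which keeps silent chromatin from spreading. SIR2 encodes a histone deacetylase that, with Sir3 and Sir4, silences the spare mating-type genes at HML and HMR and genes next to telomeres. When HML and HMR are both expressed, a haploid cell makes the a1 and alpha2 proteins together. The a1-alpha2 pair then represses haploid-specific genes, and the gene of the activator alpha1, as it does in a diploid cell.

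Of 5147 genes with values on at least 3 arrays of every group, 1479 (28.7%) differed between set1htz1sir2 and set1 (limma, Benjamini-Hochberg adjusted p under 0.05). They divided into 752 that were higher (14.6%) and 727 that were lower (14.1%) in the triple mutant. Among called genes the median size of the difference was 0.63 on the log2 scale. A difference of 2-fold or more was reached by 134 genes upward (2.6%) and 102 downward (1.98%). The arrays of the groups did not overlap for 1243 genes (24.1%), and 1053 genes (20.5%) were both called and free of overlap. The step with HTZ1 lost called 995 genes (19.3%), 465 higher (9.03%) and 530 lower (10.3%). The step with SIR2 lost called 652 genes (12.7%), 374 higher (7.27%) and 278 lower (5.4%). Without the H3K4A arrays 1671 of 5345 genes were called. Without set1htz1sir2 replicate 3 the whole difference had 481 genes lower. The step with SIR2 lost called 352 genes without set1htz1sir2 replicate 1 and 399 without replicate 3.

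**Figure D1:**
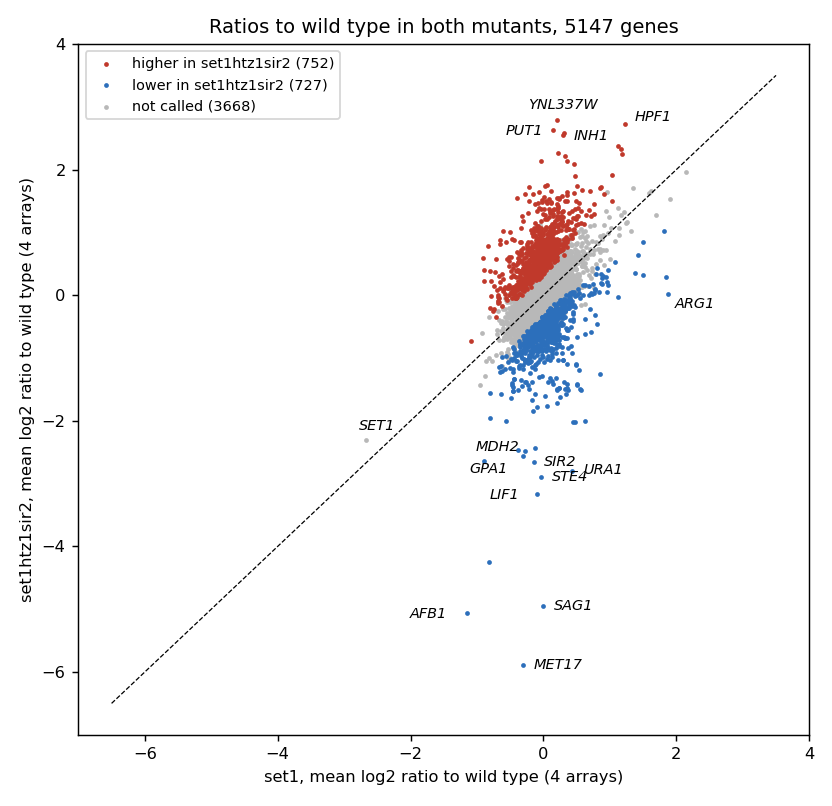
Mean log2 ratio to wild type in set1htz1sir2 (vertical axis) against set1 (horizontal axis) for the 5147 genes tested, with 752 genes called higher and 727 called lower in set1htz1sir2. The dashed line marks equal ratios; SAG1, AFB1 and MET17 lie far below it, and SET1, which both strains lack, lies near it.

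Between 5510 and 5772 entries had a value on each of the 8 arrays. Arrays of set1htz1sir2 correlated at 0.928 within a dye and at 0.748 to 0.800 across dyes. Arrays of set1 correlated at 0.734 to 0.798 within a dye and at -0.268 to 0.0904 across dyes, so that they resembled each other mainly within a dye. The fit therefore held a dye term, which was called for 1009 genes. It differed between set1htz1sir2 and set1 for 90 genes.

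SIR2 transcript was low in set1htz1sir2, and SET1 transcript in both mutants. SIR2 had log2 ratios of -2.40, -2.32, -2.84 and -2.18 on the set1htz1sir2 arrays, against -0.20, -0.42, 0.07 and 0.01 on the set1 arrays. The groups did not overlap, and SIR2 fell by 2.30 ± 0.15 (standard error, adjusted p = 4.41e-09). SET1 stood at -2.18, -2.25, -2.64 and -2.18 in set1htz1sir2 and at -2.06, -2.94, -2.94 and -2.74 in set1, low in both, and its difference did not pass the test (adjusted p = 0.23). HTZ1 had no value on the set1htz1sir2 arrays and 0.45, 0.41, 0.04 and 0.48 on the set1 arrays. A spot of low signal was removed by the authors, so a gene without a value may be one with little signal in the channels. Where the probes lie relative to the deleted segments is not known.

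Genes expressed only in alpha cells were among the largest falls. SAG1, which encodes the alpha-agglutinin of the cell surface, had log2 ratios of -4.64, -5.06, -5.06 and -5.06 in set1htz1sir2, against 0.04, -0.27, 0.19 and 0.00 in set1. All arrays of the triple mutant lay far below all arrays of set1, and SAG1 fell by 4.95 ± 0.18 (adjusted p = 8.41e-13), a 30.8-fold difference. AFB1, which encodes a barrier protein that binds a-factor, had -5.06 on all 4 arrays of set1htz1sir2 and -0.89, -1.51, -0.94 and -1.25 in set1. It fell by 3.91 ± 0.15 (adjusted p = 1.35e-12) and was already below wild type in set1. The smallest step between ratios in the files is 0.01, so ratios this low take few distinct values and the size of these falls is coarse. RNA from whole cultures cannot tell less RNA in every cell from fewer cells that express a gene.

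Other alpha-specific genes lay outside the main test because a group of the series had no value for them. A fit to the 8 arrays alone covered STE3 and MF(ALPHA)1. STE3, the receptor for a-factor, had -5.06, -4.64, -4.64 and -5.06 in set1htz1sir2, against 1.07, 0.81, 1.05 and 1.06 in set1, where it stood above wild type. Its difference in the 8-array fit was -5.85 ± 0.14 (limma adjusted p = 4.03e-10). MF(ALPHA)1, a gene of the alpha-factor pheromone, was at -6.64, the lowest log2 ratio in the table, on all 3 set1htz1sir2 arrays with a value, and at 1.06, 1.37 and 1.29 on 3 set1 arrays. The fitted -7.89 ± 0.15 of MF(ALPHA)1 (8-array limma fit, adjusted p = 8.28e-10) therefore rests on values at that limit and does not measure the size of the fall. MF(ALPHA)2, the second pheromone gene, had no value in set1htz1sir2 and 0.12, 0.36, -0.04 and 0.50 in set1. Of the 5 alpha-specific genes listed, all 4 with values in both groups were thus called lower and did not overlap. In the 8-array fit, 1654 of 5432 genes (30.4%) were called, 783 lower (14.4%) and 871 higher (16%). Among the 5147 genes of the main test, 12.3% were lower without overlap.

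**Figure D2:**
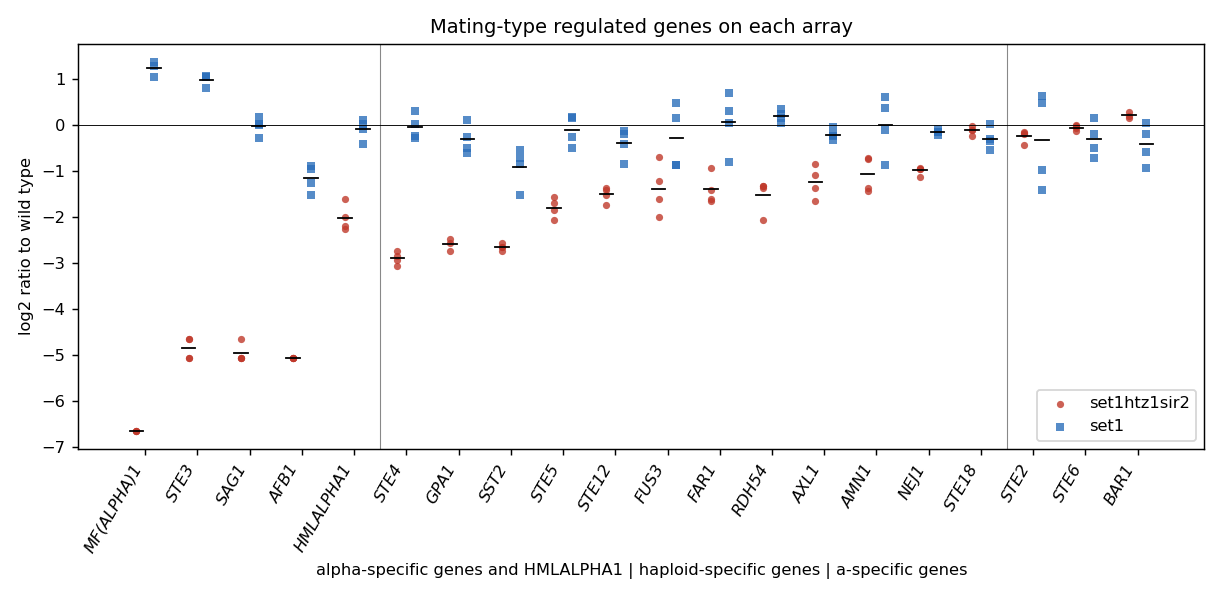
Log2 ratio to wild type on each array for alpha-specific genes and HMLALPHA1, haploid-specific genes and a-specific genes, with set1htz1sir2 as circles left of set1 as squares and a line at each mean. The alpha-specific genes of set1htz1sir2 lie between -6.64 and -4.64, most haploid-specific genes between -3.06 and -0.69, and the a-specific genes near 0.

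The probe for the alpha1 gene was low as well. HMLALPHA1, the silent copy of the gene of the alpha1 activator, read -2.0, -1.60, -2.18 and -2.25 in set1htz1sir2, against -0.07, 0.11, -0.40 and 0.04 in set1. Its difference was -1.93 ± 0.15 (8-array limma fit, adjusted p = 7.92e-06). The copy at the mating-type locus, MATALPHA1, has the same sequence, so the array cannot tell them apart. MATALPHA1 read -2.18, -2.12 and -2.47 on 3 set1htz1sir2 arrays and had no value in set1. Genes of alpha2 and its relative a2, which share sequence with each other, moved the other way or not at all. MATALPHA2 read 0.30, 0.08, 0.20 and -0.36 in set1htz1sir2, against -0.71, -0.12, -0.92 and -0.74 in set1, and was higher by 0.68 ± 0.19 (8-array limma fit, adjusted p = 0.0212). HMLALPHA2 (0.58 ± 0.24, adjusted p = 0.0762) and HMRA2 (0.42 ± 0.23, adjusted p = 0.179) did not pass the main test. HMRA1, the copy of the a1 gene at HMR, was tested in neither fit, so no difference is given for a1.

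Haploid-specific genes, which serve mating in both mating types, fell almost as a group. Of the 12 members tested 11 fell and none rose, with a median difference of -1.29 and 9 without overlap of the arrays. Over all genes tested 14.1% fell, 12.3% were lower without overlap, and the median was -0.0175. STE4, the G protein beta subunit that transmits the pheromone signal, read -3.06, -2.84, -2.94 and -2.74 in set1htz1sir2, against 0.04, -0.23, 0.32 and -0.27 in set1. It fell by 2.86 ± 0.15 (adjusted p = 2.14e-10), a 7.26-fold difference. GPA1, the alpha subunit of the same G protein, read -2.74, -2.56 and -2.47 on 3 set1htz1sir2 arrays, against -0.25, -0.60, 0.12 and -0.49 in set1, and fell by 2.26 ± 0.16 (adjusted p = 1.75e-08). The exception was STE18, the gamma subunit, with -0.01, -0.10, -0.10 and -0.23 in set1htz1sir2, against 0.03, -0.54, -0.34 and -0.30 in set1. The difference of STE18 was 0.18 ± 0.18 (adjusted p = 0.495). STE18 is the one member with a gene length of up to 450 bases.

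The other members of the pathway fell by less. SST2, which switches Gpa1 off, fell by 1.75 ± 0.20 (adjusted p = 6.36e-06). It read -2.64, -2.56, -2.74 and -2.64 in set1htz1sir2, against -0.84, -1.51, -0.54 and -0.71 in set1, so it too was below wild type in the single mutant. The scaffold gene STE5 fell by 1.69 ± 0.14, the kinase gene FUS3 by 1.11 ± 0.25 and the transcription factor gene STE12 by 1.12 ± 0.18. FAR1, which arrests the cell cycle in response to pheromone, fell by 1.47 ± 0.24. RDH54, a recombination helicase gene, fell by 1.72 ± 0.17, AXL1, which sets the budding pattern and processes a-factor, by 1.03 ± 0.14, and AMN1, which acts in mitotic exit and daughter cell separation, by 1.07 ± 0.24. The adjusted p-values of these 7 genes lay between 1.07e-07 for STE5 and 0.00318 for FUS3. FUS3 and AMN1 were the called members whose arrays overlapped between the groups. FUS3 read -2.0, -1.60, -1.22 and -0.69 in set1htz1sir2, against -0.86, 0.48, -0.86 and 0.16 in set1.

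None of the 12 was called in the step with HTZ1 lost, beside 19.3% called over all genes, and their median there was -0.0025. In the step with SIR2 lost, 11 fell, with a median of -1.30, beside 5.4% lower over all genes. Both steps share arrays with the whole difference. In every setting that left out 1 array, 11 haploid-specific genes remained called lower.

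Genes of a cells had few values. MFA1, MFA2, AGA2 and ASG7 had none in set1htz1sir2, so 3 of 7 a-specific genes were tested. BAR1, the protease that degrades alpha-factor, read 0.30, 0.21 and 0.15 in set1htz1sir2, against -0.18, -0.92, 0.06 and -0.58 in set1. It was higher by 0.57 ± 0.19 (adjusted p = 0.0304), and this call was lost without set1htz1sir2 replicate 1 or 2 or without set1 replicate 2 or 4. The call of BAR1 was also lost without a dye term and after quantile or scale normalization. STE2, the alpha-factor receptor, differed by 0.08 ± 0.28 (adjusted p = 0.859) and STE6, the a-factor exporter, by 0.26 ± 0.16 (adjusted p = 0.237).

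Genes that pheromone induces went both ways. Of 12 tested, 5 fell and 2 rose, with a median of -0.49, beside 14.1% and 14.6% over all genes. After quantile normalization 3 were lower. FUS1, needed for cell fusion, read -1.67, -1.69, -2.0 and -1.22 in set1htz1sir2, against -0.76, -0.42, -0.73 and -0.06 in set1, and fell by 1.15 ± 0.19 (adjusted p = 0.00018). AGA1, the anchor of a-agglutinin, fell by 1.15 ± 0.25 (adjusted p = 0.00206), and KAR4, a regulator of nuclear fusion genes, by 1.06 ± 0.15 (adjusted p = 5.01e-05). KAR5 fell by 0.60 ± 0.15 and PRM2 by 0.51 ± 0.13. FIG1, a membrane protein of mating cells, rose by 0.82 ± 0.19 (adjusted p = 0.00315) and PRM5 by 0.77 ± 0.13 (adjusted p = 0.000228). AGA1 had opposite steps: set1htz1 was 1.54 above set1 (adjusted p = 0.000375), and set1htz1sir2 was 2.69 below set1htz1 (adjusted p = 5.85e-07).

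Genes of DNA end joining, which rejoins broken ends without a template, fell in 4 of 6 cases, beside 14.1% over all genes. Their median was -0.55. LIF1, the partner of the ligase Dnl4, read -2.94, -3.18 and -3.32 on 3 set1htz1sir2 arrays, against 0.06, -0.20 and -0.22 on 3 set1 arrays. It fell by 3.06 ± 0.21 (adjusted p = 2.6e-08), an 8.35-fold difference. LIF1 is numbered next to the alpha-specific MF(ALPHA)2, and whether its probe also reads transcripts of that gene was not tested. On the set1htz1 arrays LIF1 read 1.97, 1.65, 2.18 and 1.48, so that its steps had opposite signs: 1.92 with HTZ1 lost (adjusted p = 5.3e-06) and -4.98 with SIR2 lost (adjusted p = 1.39e-11). NEJ1, known to be repressed in diploid cells and also counted among the haploid-specific genes, fell by 0.83 ± 0.11 (adjusted p = 2.91e-05). YKU80, a subunit of the end-binding Ku dimer, fell by 0.62 ± 0.12 (adjusted p = 0.000763), and POL4, a gap-filling polymerase, by 0.49 ± 0.12 (adjusted p = 0.00577). The call of POL4 was lost after quantile or scale normalization. With values required on all 4 arrays of each group, 2 of 4 genes tested were lower. YKU70 (-0.33 ± 0.14, adjusted p = 0.0934) and DNL4 (0.08 ± 0.13, adjusted p = 0.679) did not pass.

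Beside the silent loci themselves, 2 unnamed ORFs stood high. YCR097WA, numbered next to the HMR genes, read 2.32, 4.48 and 3.06 on 3 set1htz1sir2 arrays, against -0.20, 0.74, -0.79 and -0.12 in set1, a difference of 3.42 ± 0.46 (8-array limma fit, adjusted p = 0.000436). YCL074W read 2.96, 2.84 and 3.39 on 3 set1htz1sir2 arrays and had no value in set1, so it could not be compared. Of the 18 tested genes that neighbour HML or HMR, 3 rose and 2 fell, with a median of 0.20, shares near those of all genes. The count of higher genes was 6 with a dye term for each group and 1 after quantile normalization. RDS1, a transcription factor gene between HMR and the chromosome end, rose by 0.89 ± 0.23 (adjusted p = 0.00701), the transporter gene VBA3 by 0.72 ± 0.16 (adjusted p = 0.00324), and YCL068C by 0.64 ± 0.21 (adjusted p = 0.0279). The call of YCL068C was lost without replicate 1 or 3 of either group, and with the gene length trend described below removed. CHA1, the serine and threonine deaminase gene near HML, read -1.74, -1.40, -1.74 and -1.51 in set1htz1sir2, against -0.14, 0.16, -0.22 and 0.29 in set1. CHA1 fell by 1.62 ± 0.12 (adjusted p = 2.02e-08), most of it in the step with HTZ1 lost (-1.24), and OCA4 fell by 0.73 ± 0.15 (adjusted p = 0.0011). GIT1 (0.21) and CDC39 (0.12), also beside the silent loci, did not pass.

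Among the largest falls outside the mating genes were metabolic genes. URA1, dihydroorotate dehydrogenase of pyrimidine synthesis, read -2.40, -3.06, -2.25 and -3.47 in set1htz1sir2, against 0.95, -0.22, 1.23 and -0.23 in set1. It fell by 3.23 ± 0.19 (adjusted p = 8.35e-10). URA4, the enzyme of the preceding reaction, read -1.64, -2.12, -1.74 and -2.56 in set1htz1sir2, against 0.39, 0.45, 0.56 and 0.50 in set1, and fell by 2.49 ± 0.14 (adjusted p = 5.2e-10). Both genes were low on every array of the triple mutant. RIB4, a riboflavin synthesis gene, fell by 2.62 ± 0.22 (adjusted p = 2.01e-07), and MDH2, the cytosolic malate dehydrogenase gene, by 2.50 ± 0.17 (adjusted p = 1.05e-08). AQR1, a multidrug transporter gene, fell by 2.46 ± 0.21 (adjusted p = 1.47e-07), about equally in both steps (-1.25 and -1.20). NDJ1, which acts at telomeres in meiosis, fell by 2.19 ± 0.19 (adjusted p = 1.82e-07). YLR041W, the ORF numbered next to AFB1, fell by 3.43 ± 0.17 (adjusted p = 2.14e-10). Whether its probe also reads AFB1 transcripts was not tested.

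**Figure D3:**
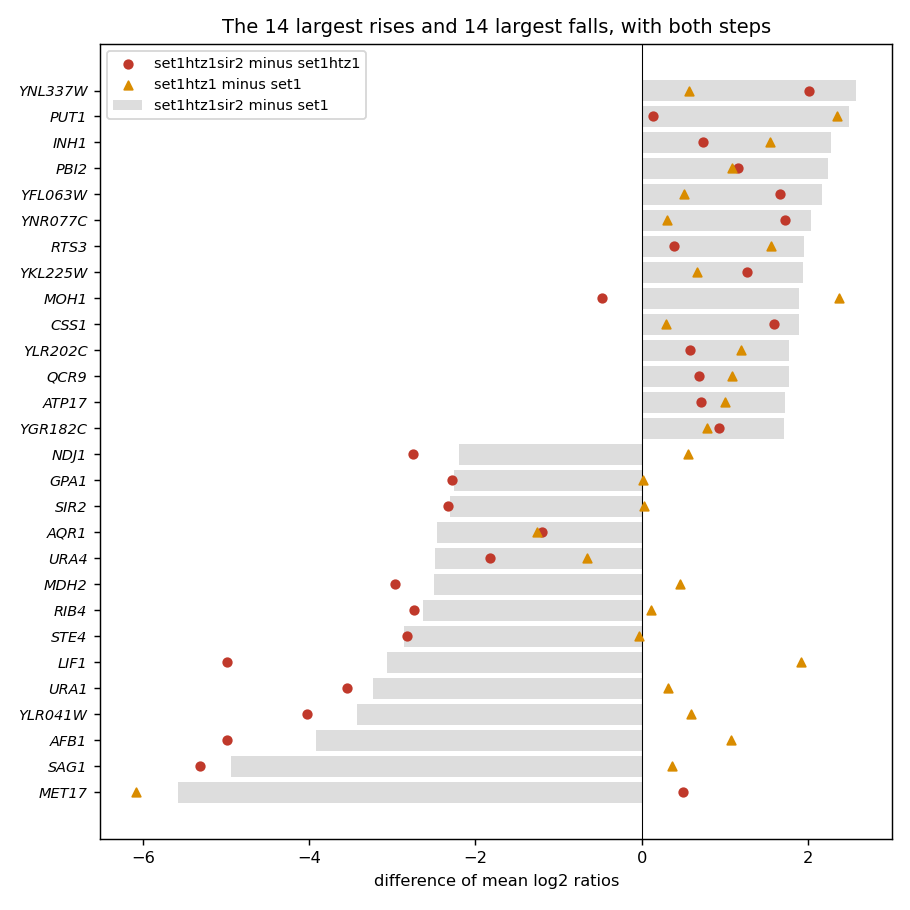
Difference of mean log2 ratios for the 14 largest rises and 14 largest falls: bars show set1htz1sir2 minus set1, circles the step with SIR2 lost and triangles the step with HTZ1 lost. For STE4, GPA1, SAG1, MDH2 and RIB4 the circle lies near the end of the bar, for PUT1 and MET17 the triangle does, and for LIF1 and MOH1 the steps have opposite signs.

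MET17, a sulfur assimilation gene that is a marker in many laboratory strains, had the largest fitted fall of the tested genes. It read -5.64, -5.64, -6.64 and -5.64 in set1htz1sir2, against -0.22, -0.54 and -0.06 on 3 set1 arrays. The fitted difference of -5.58 ± 0.27 includes 1 value at the lowest possible ratio, and MET17 was as low in set1htz1 (-6.64 to -5.64). LYS2, another common marker, read -0.15, 0.26, 0.03 and 0.74 in set1htz1sir2, against -0.23, 0.50, -0.06 and 0.69 in set1, with no difference called (-0.01 ± 0.21, adjusted p = 0.986), although it stood at 2.32 to 3.32 in set1htz1. Since marker genotypes are not given here, the part of strain markers in the values of MET17, HIS3 (0.69 ± 0.17, adjusted p = 0.00424) and ADE2 (-0.78 ± 0.12, adjusted p = 8.3e-05) was not tested.

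The largest rises were of another kind. PUT1, proline oxidase, read 2.40, 2.56, 3.10 and 2.48 in set1htz1sir2, against -0.06, 0.38, -0.15 and 0.40 in set1, a rise of 2.49 ± 0.16 (adjusted p = 4.41e-09) that was as large in the step with HTZ1 lost (2.35). INH1, which inhibits the mitochondrial ATP synthase, rose by 2.27 ± 0.22 (adjusted p = 6.49e-07), and PBI2, an inhibitor of the vacuolar protease B, by 2.25 ± 0.30 (adjusted p = 2.11e-05). RTS3 rose by 1.96 ± 0.18 (adjusted p = 4.33e-07) and MOH1 by 1.89 ± 0.23 (adjusted p = 8.32e-06). The ORFs YLR202C (1.78 ± 0.28) and YGR182C (1.72 ± 0.14), which have no gene name in RefSeq, were also among the 14 largest. YGR182C is numbered next to QCR9, another of the 14, and whether its probe also reads QCR9 transcripts was not tested.

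Several of the largest rises were ORFs numbered near the end of a chromosome arm. YNL337W read 2.32, 3.03 and 3.06 on 3 set1htz1sir2 arrays, against 0.14, 0.32, -0.07 and 0.43 in set1, a rise of 2.58 ± 0.18 (adjusted p = 3.21e-08). YNR077C, the outermost RefSeq ORF of its arm, read 2.45, 1.79, 2.63 and 2.19 in set1htz1sir2, against 0.07, 0.16, 0.43 and 0.24 in set1, and rose by 2.04 ± 0.16 (adjusted p = 3.21e-08). YFL063W rose by 2.17 ± 0.18 (adjusted p = 1.75e-07) and YKL225W by 1.94 ± 0.16 (adjusted p = 8.69e-08). In each of these 4, the step with SIR2 lost was the larger one (1.27 to 2.01, against 0.31 to 0.67 with HTZ1 lost).

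COS genes, a subtelomeric family of membrane proteins that sort proteins to the vacuole, rose in 7 of 9 tested cases, with none lower and a median of 1.05, beside 14.6% higher over all genes. COS2 read 1.08, 1.03, 1.67 and 0.92 in set1htz1sir2, against 0.07, -0.42, 0.23 and -0.04 in set1. It rose by 1.22 ± 0.16 (adjusted p = 1.74e-05), and COS1 by 1.15 ± 0.14 (adjusted p = 1.24e-05). The 7 that rose lay between 0.97 (COS5) and 1.22, and in all 7 the arrays did not overlap. Of all genes tested, 11.9% were higher without overlap. COS9 (0.02 ± 0.15) and COS10 (-0.29 ± 0.20) did not pass. The steps had medians of 0.45 with HTZ1 lost and 0.56 with SIR2 lost, over the 9 genes. COS genes are close in sequence, so their probes may read each other's transcripts and the 7 are not independent. YNL337W and YFL063W, given above, are numbered next to COS1 and COS4, and whether their probes also read COS transcripts was not tested.

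Other subtelomeric genes that rose included HPF1, a cell wall mannoprotein gene. HPF1 read 2.87, 2.40, 3.14 and 2.48 in set1htz1sir2, against 1.71, 0.84, 1.49 and 0.89 in set1, and rose by 1.49 ± 0.18 (adjusted p = 1.19e-05). CSS1, its relative, read 2.39, 2.40, 1.88 and 2.19 in set1htz1sir2, against 0.46, 0.32, -0.12 and 0.64 in set1, and rose by 1.89 ± 0.23 (adjusted p = 1.37e-05). In CSS1 and HPF1 the step with SIR2 lost was 1.59 and 1.40, and the step with HTZ1 lost 0.30 and 0.09. The ORFs YAL069W (1.55 ± 0.16), YHR214W (1.5 ± 0.15) and YAR066W (1.18 ± 0.18) rose too. These ORFs were named after their values were seen, and whether they share sequence with HPF1 was not tested. FLO5 (-0.52 ± 0.15, adjusted p = 0.0137) and FLO9 (-0.39 ± 0.13, adjusted p = 0.0373), flocculin genes, were called lower. Neither was called without set1htz1sir2 replicate 1, without set1 replicate 1, after quantile or scale normalization, or with the gene length trend removed.

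Genes near chromosome ends were called in both directions. Among the 5 outermost RefSeq ORFs of each chromosome end, 25 of 115 tested genes rose (21.7%) and 15 fell (13%). Among ORFs ranked 6 to 10, 14 of 129 rose (10.9%) and 26 fell (20.2%), and at ranks 11 to 20, 28 of 253 rose (11.1%) and 38 fell (15%). Beyond rank 20, 622 of 4266 rose (14.6%) and 598 fell (14%). ORFs without a RefSeq rank were left out, and YNL337W, YFL063W, YKL225W and YAL069W were not counted at ranks 1 to 10. The median difference was near 0 in all 4 classes (-0.03 to 0.0175), and the 10th to 90th percentiles were widest at ranks 1 to 5 (-0.60 to 0.95), against -0.49 to 0.57 beyond rank 20. The PAU family, wall proteins that lie mostly near telomeres, had 1 gene higher (PAU1, 0.33 ± 0.12, adjusted p = 0.0449) and 1 lower (PAU22, -0.66 ± 0.16, adjusted p = 0.0052) among 19 tested. These shares were below the 14.6% higher and 14.1% lower over all genes. The call of PAU1 was lost without set1htz1sir2 replicate 2, 3 or 4 and without set1 replicate 1, 2 or 4. With the gene length trend removed, 5 PAU genes were lower and none higher. Its median ratio to wild type was 0.59 in set1htz1sir2 and 0.47 in set1. Of 8 subtelomeric sugar genes, HXT17, a hexose transporter gene (-0.61 ± 0.12, adjusted p = 0.000691), and DSF1, a mannitol dehydrogenase gene (-0.65 ± 0.14, adjusted p = 0.00175), fell and none rose. The shares over all genes were 14.1% lower and 14.6% higher.

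**Figure D4:**
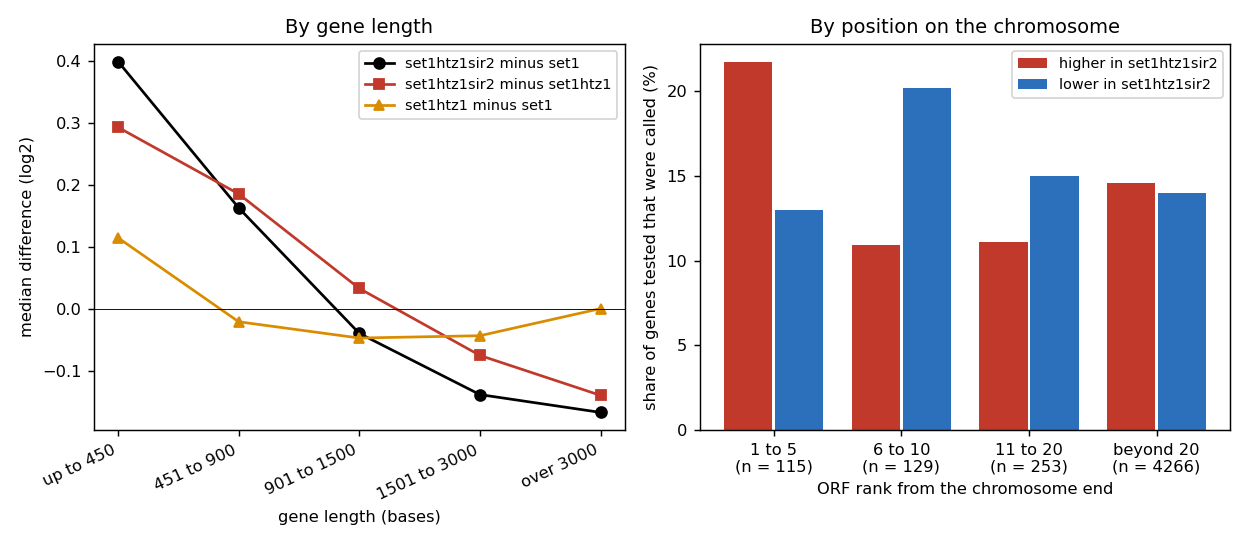
Left, median difference (log2) by gene length for set1htz1sir2 minus set1 and for both steps; right, share of tested genes called higher or lower in set1htz1sir2 by ORF rank from the chromosome end. Genes of up to 450 bases have a median difference of 0.40 and genes over 3000 bases one of -0.17, and ranks 1 to 5 have the largest share of higher genes (21.7%).

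The difference went with gene length, taken as the span of the gene in RefSeq, which includes introns. Over 4763 genes with a RefSeq length, Spearman's correlation of the difference with length was -0.374, as a description across genes, which are not independent. It was -0.413 for the step with SIR2 lost and -0.0600 for the step with HTZ1 lost. Of 364 genes of up to 450 bases 42.0% were higher and 3.85% lower, and of 381 genes over 3000 bases 2.10% were higher and 16.8% lower. Each array's own correlation with length was -0.254 to -0.350 on the 4 set1htz1sir2 arrays and -0.0927 to 0.153 on the 4 set1 arrays. Respiratory and ribosomal protein genes, which follow, are mostly short.

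Genes of the respiratory chain and ATP synthase rose nearly throughout. Of 30 tested, 28 rose and none fell, with a median of 1.21 and 26 without overlap of the arrays. Over all genes 14.6% rose, and 11.9% were higher without overlap. QCR9, a small subunit of complex III, read 1.67, 1.36, 2.0 and 1.40 in set1htz1sir2, against 0.08, 0.01, -0.30 and -0.43 in set1, and rose by 1.77 ± 0.15 (adjusted p = 8.69e-08), a 3.4-fold difference. ATP17, a subunit of the ATP synthase, read 1.44, 1.48, 1.18 and 1.89 in set1htz1sir2, against -0.09, 0.00, -0.67 and -0.14 in set1, and rose by 1.72 ± 0.15 (adjusted p = 1.07e-07). The cytochrome oxidase genes COX7 (1.59 ± 0.27, adjusted p = 0.000314) and COX8 (1.55 ± 0.16, adjusted p = 1.07e-06) followed. COX7 on the set1 arrays was -0.84, 0.86, -0.86 and 0.30, split by dye, against 1.58, 1.32, 1.60 and 1.32 in set1htz1sir2.

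The rise covered every complex with tested members. The external NADH dehydrogenase gene NDE1 rose by 1.5 ± 0.19 and the internal one, NDI1, by 1.20 ± 0.19. All 4 succinate dehydrogenase genes rose, SDH2 most (1.32 ± 0.16) and SDH4 least (0.60 ± 0.19). The call of SDH4 was lost without replicate 2 of either group, without set1htz1sir2 replicate 4, without set1 replicate 1, and with the length trend removed. The complex III genes that rose lay between COR1 (0.87 ± 0.17) and QCR9, and the 8 ATP synthase genes that rose between ATP4 (0.95 ± 0.15) and ATP17. CYT1, cytochrome c1 (0.04 ± 0.16, adjusted p = 0.864), and COX5B, the isoform used at low oxygen (0.30 ± 0.23, adjusted p = 0.351), did not pass, while its aerobic counterpart COX5A rose by 0.89 ± 0.13. The steps had medians of 0.67 with HTZ1 lost, in which 21 of the 30 rose, and 0.50 with SIR2 lost, in which 14 rose. The shares that rose over all genes were 9.03% and 7.27%.

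The rise was also seen within length classes. All 13 respiratory members of up to 450 bases rose, with a median of 1.37, against 39.9% higher and a median of 0.36 among the other 351 genes of that class. All 4 members of over 1500 and up to 3000 bases rose as well, with a median of 1.23, against 5.71% and -0.14 among the other 1470 genes there. With the length trend removed from each array, 26 of the 30 were higher.

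Cytosolic ribosomal protein genes rose in 53 of 118 tested cases and fell in none, with a median of 0.50, beside 14.6% higher over all genes. RPL41A, which encodes a very small protein of the large subunit, read 1.83, 1.19, 1.72 and 1.5 in set1htz1sir2, against -0.24, 0.83, -1.18 and 0.62 in set1, and rose by 1.55 ± 0.38 (adjusted p = 0.00519). The set1 values split by dye, and the groups did not overlap. RPL39 rose by 1.44 ± 0.35 (adjusted p = 0.00463), RPS25B by 1.16 ± 0.18 (adjusted p = 0.00011) and RPL41B by 1.19 ± 0.41 (adjusted p = 0.0382). RPL41A and RPL41B were not called with the length trend removed, and RPL41B was not called without replicate 1 or 3 of either group or without set1 replicate 4. Paralogues of these genes are near identical in sequence, so pairs such as RPL41A and RPL41B cannot be separated. In the step with SIR2 lost 60 rose and 1 fell, with a median of 0.62, beside 7.27% and 5.4% over all genes. The step with HTZ1 lost had 1 higher and 1 lower and a median of -0.08, beside 9.03% and 10.3%.

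The count of ribosomal protein genes depended on the setting, and none was called lower in any setting that left out an array. It was 82 in the fit to the 8 arrays alone, 31 without a dye term, 22 after quantile normalization, 26 with the arrays scaled to equal spread, and 27 without set1htz1sir2 replicate 3. With the length trend removed it was 42. Many ribosomal protein genes hold an intron, so their length here exceeds that of the coding sequence. Proteasome genes rose in 8 of 31 cases, beside 14.6% over all genes, with a median of 0.24, led by PRE3 (0.83 ± 0.14, adjusted p = 0.000326). Quantile normalization left 4 and scaling 5 of them. Of 53 ribosome biogenesis genes 4 were higher and 6 lower, shares below the 14.6% and 14.1% over all genes, and 8 were higher without set1 replicate 3. They included the snoRNP gene NOP56 at -1.16 ± 0.16 and NHP2, of another snoRNP class, at 0.70 ± 0.18.

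Elsewhere in carbon metabolism 7 genes of the TCA and glyoxylate cycles rose and 3 fell, of 23 tested, beside 14.6% and 14.1% over all genes. The share that fell was thus near that of all genes. IDH2 and IDH1, the subunits of the mitochondrial isocitrate dehydrogenase, rose by 1.18 ± 0.17 and 0.97 ± 0.12, and ACO1, aconitase, by 1.13 ± 0.18. IDH1 read 0.42, 0.20, 0.52 and 0.06 in set1htz1sir2, against -0.64, -0.62, -0.60 and -0.81 in set1. All 3 were below wild type in set1 and at or above it on most arrays of the triple mutant. MDH2 fell, as given above, with CIT2 (-0.84 ± 0.25), the peroxisomal citrate synthase gene, and DLD3 (-0.80 ± 0.19), a lactate dehydrogenase gene. CIT2 and DLD3, named after their values were seen, are among the targets of the retrograde pathway from mitochondria to nucleus. The targets of that pathway were not examined as a set. In glycolysis PFK1, a phosphofructokinase subunit, fell by 0.96 ± 0.16 (adjusted p = 0.000273).

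Stress genes rose mostly in the step with HTZ1 lost. Of 26 stress and storage carbohydrate genes 10 rose and 2 fell, with a median of 0.36, beside 14.6% and 14.1% over all genes. HSP12, a membrane-stabilising stress protein, read 1.68, 1.25, 2.0 and 1.65 in set1htz1sir2, against -0.23, 0.15, -0.36 and 0.19 in set1, and rose by 1.71 ± 0.23 (adjusted p = 4.04e-05). Its steps were 1.69 and 0.02. HXK1, a hexokinase, rose by 1.63 ± 0.18, HOR7 by 1.38 ± 0.23 and TSL1, a subunit of trehalose synthase, by 1.19 ± 0.15. The fallen members were YGP1 (-0.47 ± 0.16) and GAC1 (-0.76 ± 0.12), which directs a phosphatase to glycogen synthase. The count of lower stress genes was 1 without set1htz1sir2 replicate 1 or 3 and without any one of the set1 arrays.

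Of 19 heat shock chaperone genes 10 rose and none fell, with a median of 0.44, beside 14.6% higher over all genes. HSP26, a small heat shock protein, read 1.57, 1.56, 1.38 and 1.65 in set1htz1sir2, against 0.12, 0.36, -0.12 and 0.43 in set1, and rose by 1.34 ± 0.13 (adjusted p = 7.22e-07). HSP42 rose by 1.37 ± 0.20 and the mitochondrial chaperonin HSP60 by 0.98 ± 0.16. KAR2, the chaperone of the endoplasmic reticulum, rose by 1.15 ± 0.17, while CNE1, calnexin, fell by 0.85 ± 0.14. RNR2, a subunit of ribonucleotide reductase, rose by 0.93 ± 0.15 (adjusted p = 0.00017).

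**Figure D5:**
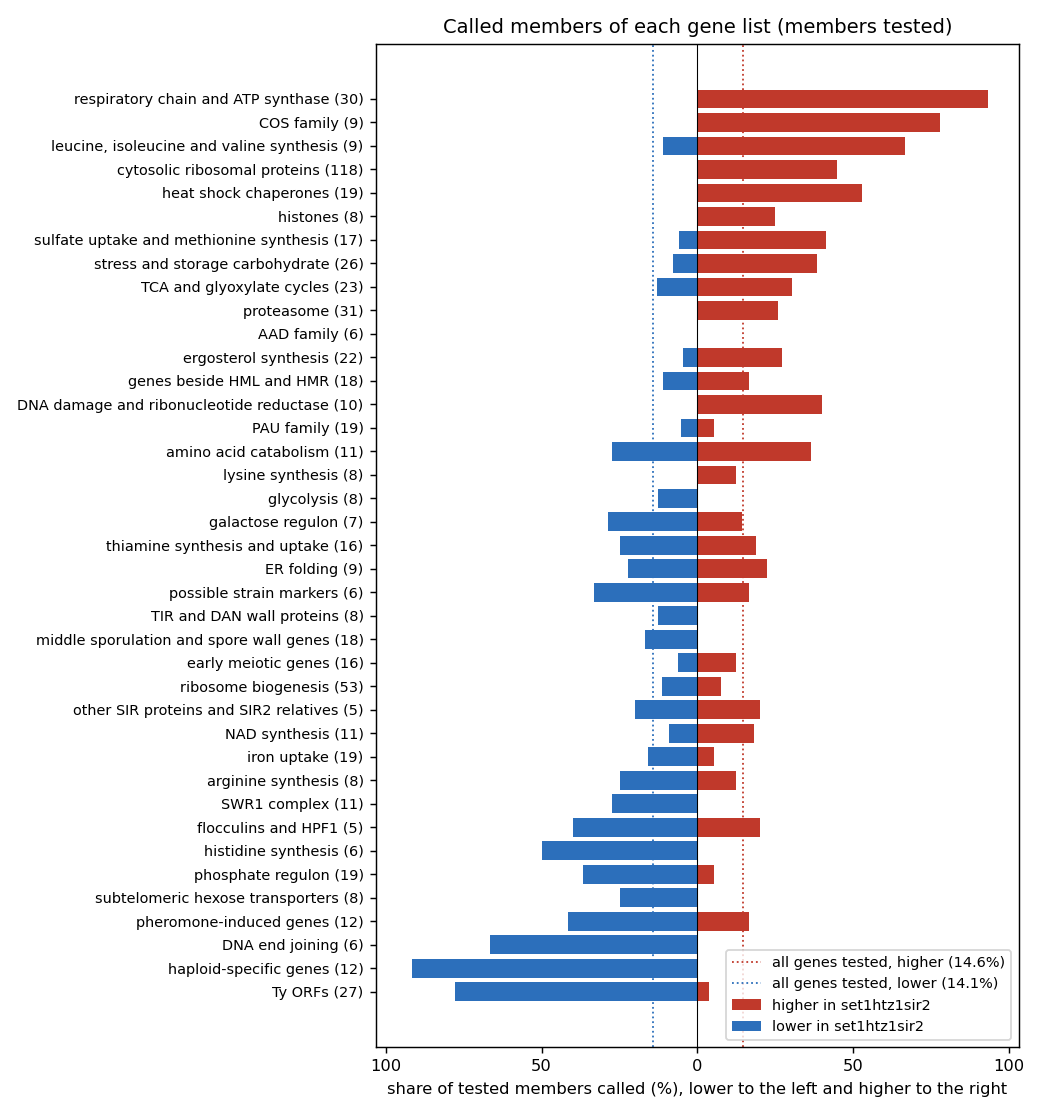
Share of the tested members of each gene list that were called higher (right) or lower (left) in set1htz1sir2, for lists with at least 5 tested members, ordered by the list's median difference, with the shares over all genes (14.6% and 14.1%) as dotted lines. Respiratory and COS genes lie at the top and Ty ORFs and haploid-specific genes at the bottom.

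The phosphate regulon, which serves phosphate uptake and storage, fell in 7 of 19 tested cases and rose in 1, with a median of -0.31. The shares over all genes were 14.1% and 14.6%. PHO11, a secreted acid phosphatase gene, read -1.89, -1.60, -1.51 and -1.89 in set1htz1sir2, against 0.37, -0.22, 0.52 and 0.15 in set1, and fell by 1.93 ± 0.20 (adjusted p = 1.84e-06). PHO12, its near-identical copy at another chromosome end, fell by 1.81 ± 0.14 (adjusted p = 4.92e-08), and the array may not tell them apart. PHO5, the main acid phosphatase, fell by 0.85 ± 0.14, PHM6 by 1.03 ± 0.16 and VTC3, a polyphosphate synthase subunit, by 0.91 ± 0.20. PHO89, a sodium-phosphate transporter gene, rose by 0.50 ± 0.17 (adjusted p = 0.0311), a call lost without set1htz1sir2 replicate 1 or 4 or without set1 replicate 1 or 2. The PHO89 call was also lost without a dye term and after quantile or scale normalization.

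Members of the phosphate regulon differed in their steps. PHO11 and PHO12 fell with HTZ1 lost (-1.96 and -1.90) and did not pass the test with SIR2 lost (0.03 and 0.09). SPL2, which represses low-affinity phosphate transport, fell by 1.46 with HTZ1 lost (adjusted p = 1.27e-06) and rose by 1.64 with SIR2 lost (adjusted p = 1.62e-07). SPL2 therefore showed no call in the whole difference (0.18 ± 0.14, adjusted p = 0.339), with 0.25, 0.01, -0.07 and -0.06 in set1htz1sir2, against -0.14, 0.00, -0.40 and -0.07 in set1. With HTZ1 lost 10 of the 19 fell and 1 rose, beside 10.3% and 9.03% over all genes. With SIR2 lost 4 rose and 2 fell, beside 7.27% and 5.4%.

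Of 11 genes of amino acid catabolism and its uptake 4 rose and 3 fell, with a median of 0.11. Over all genes 14.6% rose and 14.1% fell, the shares to set beside every count in this paragraph. Besides PUT1, the arginine catabolism genes CAR1 and CAR2 rose by 1.70 ± 0.13 (adjusted p = 4.82e-08) and 1.54 ± 0.17 (adjusted p = 6.01e-06), and PUT2 by 0.93 ± 0.13. CAR1 read 1.93, 1.52, 2.07 and 1.52 in set1htz1sir2, against 0.31, 0.03, 0.24 and -0.34 in set1. GAP1, the general amino acid permease, fell by 0.91 ± 0.13, UGA2, of GABA breakdown, by 0.42 ± 0.15 (adjusted p = 0.043), and CHA1, as given above, by 1.62. The count of lower catabolism genes was 2 without any one of the set1htz1sir2 arrays and without set1 replicate 3. Of 8 arginine synthesis genes 2 fell and 1 rose: ARG1 fell by 1.85 ± 0.23 (adjusted p = 1.5e-05), ARG3 fell by 0.80 ± 0.14 and ARG7 rose by 0.86 ± 0.13. ARG1 read 0.15, 0.29, -0.18 and -0.18 in set1htz1sir2, against 2.24, 1.0, 2.69 and 1.56 in set1, so that the high ratio was that of the single mutant. HIS4 read -0.64, -0.27, -0.64 and -0.29 in set1htz1sir2, against 0.57, 0.86, 0.85 and 0.97 in set1, and fell by 1.27 ± 0.15 (adjusted p = 6.9e-06). Of 9 genes for leucine, isoleucine and valine 6 rose, among them LEU4 (0.97 ± 0.20), BAT1 (0.92 ± 0.17) and ILV2 (0.85 ± 0.18), while the cytosolic aminotransferase BAT2 fell by 0.85 ± 0.16.

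Sulfur and vitamin genes were mixed. Of 17 genes of sulfate uptake and methionine synthesis 7 rose and 1 fell, beside 14.6% and 14.1% over all genes. MET14 (0.74 ± 0.14) and MET16 (0.73 ± 0.18) rose most. Without set1htz1sir2 replicate 3 the count of higher genes was 4, and the count of lower genes was 0 without set1htz1sir2 replicate 1 or 3 and 2 without set1 replicate 2. The thiamine genes THI12 (1.26 ± 0.12) and THI11 (1.17 ± 0.17), near-identical copies, rose, and SNO2 (-1.26 ± 0.14) and SNO3 (-1.20 ± 0.14), relatives of a vitamin B6 synthesis gene, fell. THI12 was above wild type in both mutants, with 2.20, 2.40, 2.52 and 2.40 in set1htz1sir2, against 1.34, 0.89, 1.34 and 0.92 in set1. TNA1, the nicotinic acid transporter, read 0.10, 0.21, 0.00 and 1.09 in set1htz1sir2, against 1.21, 1.15, 1.52 and 1.60 in set1, and fell by 1.02 ± 0.20 (adjusted p = 0.000966), whereas BNA1, of NAD synthesis, rose by 0.88 ± 0.14.

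Ty retrotransposons, whose Ty1 family is known to be repressed by a1-alpha2 in diploid cells, are present in many copies. Their ORFs fell in 21 of 27 tested cases and rose in 1, with a median of -1.69, beside 14.1% and 14.6% over all genes. YMR046C read -1.32, -1.79, -1.18 and -1.74 in set1htz1sir2, against 2.0, -0.09, 0.94 and -0.60 in set1, a fall of 2.07 ± 0.30 (adjusted p = 4.77e-05). YER160C read -1.29, -1.94, -1.51 and -1.56 in set1htz1sir2, against 0.37, 0.41, 0.43 and 0.15 in set1, a fall of 1.92 ± 0.21 (adjusted p = 5.91e-06). Of the ORFs that fell, 20 did so by 1.42 to 2.07, and YIL080W by 0.45 ± 0.15 (adjusted p = 0.0378). The call of YIL080W was lost in the 8-array fit, with a replicate block, without set1htz1sir2 replicate 1, 2 or 3 and without set1 replicate 1, 2 or 4. YBL100W-A was the one that rose (0.46 ± 0.11, adjusted p = 0.00588). YJL113W (-0.33 ± 0.16) and YJL114W (-0.02 ± 0.13) did not pass. The step with SIR2 lost called 21 lower with a median of -2.05, beside 5.4% lower over all genes. The step with HTZ1 lost called 1 higher with a median of 0.35, beside 9.03% higher. Copies of a Ty family are near identical, so these values largely repeat the signal of few sequences, and the list was drawn up after the values had been seen.

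Genes of the complexes themselves were called in part, beside 14.6% higher and 14.1% lower over all genes. With HTZ1 lost 4 of 11 SWR1 genes and 2 of 4 COMPASS genes were lower and none higher, beside 10.3% lower over all genes. With SIR2 lost 4 of 8 histone genes were higher and none lower, beside 7.27% higher. In the whole difference, among relatives of SIR2 and the other SIR genes, HST2 rose by 0.73 ± 0.14 (adjusted p = 0.00108) and HST1 fell by 0.53 ± 0.15 (adjusted p = 0.0119), of 5 tested. The call of HST1 was lost without set1htz1sir2 replicate 3 and after quantile or scale normalization. SIR4 (-0.12 ± 0.22), SUM1 (-0.17 ± 0.28) and HST3 (0.12 ± 0.13) did not pass, and SIR3 had no value on the 8 arrays. Of 4 COMPASS subunits SPP1 fell by 0.41 ± 0.13 (adjusted p = 0.021), a call lost without set1htz1sir2 replicate 2 or 3, while 2 subunits were lower without set1 replicate 2. The SPP1 call was also lost with array weights and after quantile or scale normalization. Of 11 SWR1 complex genes 3 fell: ARP6 by 0.66 ± 0.14 (adjusted p = 0.00139), ARP4 by 0.47 ± 0.14 and RVB1 by 0.40 ± 0.13. Without set1htz1sir2 replicate 3 or set1 replicate 3 the count of SWR1 genes was 1, as it was without a dye term and after quantile or scale normalization. Among 8 histone genes, HHT2 (0.50 ± 0.17, adjusted p = 0.0391) and HTB1 (0.44 ± 0.14, adjusted p = 0.0238) were called higher, both in the length class of up to 450 bases, in which 42.0% of all genes rose. No histone gene was higher with the length trend removed or after quantile or scale normalization, and without set1htz1sir2 replicate 1, 3 or 4 or set1 replicate 1 or 4 the count of higher histone genes was 1.

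Meiotic genes, some of which the a1-alpha2 pair is known to permit in diploid cells, showed few calls. IME1, the master regulator of meiosis, read 0.36, 0.11, 0.45 and 0.19 in set1htz1sir2, against -0.06, -0.32, 0.19 and -0.27 in set1, a rise of 0.39 ± 0.12 (adjusted p = 0.0206). IME2, a meiotic kinase gene, rose by 0.35 ± 0.12 (adjusted p = 0.0413), and SPO16 fell by 0.73 ± 0.19. They were the 3 called of 16 early meiotic genes, beside 28.7% called over all genes. Without any single set1htz1sir2 replicate, or without set1 replicate 1 or 4, the count of higher genes was 0 or 1. After quantile or scale normalization it was 0. Of 18 middle sporulation genes 3 fell (GAS2, DIT2 and OSW1), a share near the 14.1% over all genes. The count was 1 without replicate 3 of either group and 0 with scale normalization.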

How the data were processed

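The authors deposited log2 ratios of mutant to wild type, which per the deposited description came from GenePix spot intensities, with spots of low signal or poor regression removed and ratios normalized to the total signal of each sample. The log base and the smallest ratio step were read from the values, and no scanner file was used. The table has 6282 entries, 296 of them with a prefix z that no label explains. Entries of one ORF were averaged, giving 6074 ORFs, of which 5560 matched RefSeq R64 (21 through an older name) for symbols, gene lengths and order on the chromosome.

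All 16 arrays were fitted with limma 3.58.1 in R 4.3.3 as 4 group means and 1 shared dye term, with eBayes and Benjamini-Hochberg adjustment over the 5147 genes that had values on at least 3 arrays of every group. Values after ± are standard errors. The H3K4A arrays are the fourth group of this fit. A fit to the 8 arrays compared covered genes that another group lacks. The fit was tested on simulated data, and counts and figures used Python 3.11.15. The members and gene lists were chosen with earlier results of these data known. Genes were named by rule: the deleted genes, all mating genes, the 14 largest called rises and falls without overlap, and up to 4 called members of each list with the largest difference. Other genes were named after their values were seen. They included further members of the SIR, COMPASS, SWR1, histone, COS, phosphate, respiratory and Ty lists. YCR097WA, YAL069W, YHR214W, YAR066W, CIT2, DLD3, YGP1, GAC1, PUT2, GAP1, UGA2 and some genes given as not called were also among them. Replicate numbers carry the dye: same-numbered arrays of the groups deviated together (correlations of 0.287 to 0.601), but at -0.111 to 0.0683 once dye means were removed, so the numbers were not taken as pairs. Alternatives covered the arrays in the fit, the dye term, the normalization, the filters, a replicate block and each array left out. Removal of the gene length trend was chosen after seeing the data.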

Additional observations from a re-analysis of the deposited data

Results flagged for a closer look

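In 29 of 560 groups of 4 arrays, 1 array stood apart from the other 3 by Dixon's criterion, which chance alone meets in about 1 in 20 groups. The values are log2 ratios to wild type, each beside its group's median.

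In set1htz1sir2, replicate 3 stood apart for 10 of the genes. It read 2.24 for RTS3 (median 1.36), -6.64 for MET17 (-5.64), -4.06 for YLR041W (-4.32), -2.64 for SET1 (-2.21), -2.06 for RDH54 (-1.34) and -1.12 for NEJ1 (-0.94). It read 1.16 for FIG1 (0.79), 1.36 for COS1 (0.98), 1.69 for HXK1 (0.85) and 1.32 for COX6 (1.05). Replicate 1 read -4.64 for SAG1 (-5.06) and 0 for RVB1 (-0.29), and replicate 2 read 0.54 for ADH7 (0.74) and 0.26 for HST3 (0.01). Replicate 4 read -0.43 for STE2 (-0.17), 1.52 for ARG7 (1.75) and 0.21 for NHP2 (0.54).

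In set1, replicate 1 read 0.01 for GAL4 (-0.01), 0.06 for MET3 (-0.23), -0.79 for NDE1 (-0.94) and 0.59 for YAL069W (-0.03). Replicate 2 read 0.81 for STE3 (1.05) and -0.62 for SWD1 (0.13). Replicate 3 read 0.04 for HTZ1 (0.43), 0.63 for PRE3 (-0.10), 0.28 for VTC1 (0.07) and -0.60 for COX9 (0.18). Replicate 4 read 0.60 for HOR7 (-0.03) and -0.40 for CTF19 (-0.17).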

How the results depend on the processing

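Of 211 called genes named, 165 kept their call and direction in all 23 other settings, and 46 lost the call in at least 1. The PAU1 difference (0.33) turned to -0.046 with the gene length trend removed. The 1479 genes called fell to 830 after quantile normalization (427 higher, 403 lower) and 928 with scaling (501 higher, 427 lower), and lay at 1050 to 1508 with 1 array left out (569 to 777 higher, 481 to 731 lower). The replicate block, whose numbers carry the dye, called 1380 genes (723 higher, 657 lower), with 902 in the step with HTZ1 lost and 562 in the step with SIR2 lost. The step with HTZ1 lost called 589 genes after quantile normalization (266 higher, 323 lower), 616 with scaling (294 higher, 322 lower) and 773 to 987 with 1 array left out (369 to 446 higher, 404 to 541 lower). The step with SIR2 lost called 408 without a dye term (209 higher), 243 after quantile normalization (108 higher, 135 lower), 285 with scaling (132 higher, 153 lower), 1386 with array weights (794 higher, 592 lower), 352 to 779 with 1 array left out (179 to 448 higher, 173 to 331 lower), and 242 higher with the length trend removed. The cause of these changes was not tested. Values near the lowest ratio and genes without values limit what the arrays show of strongly lowered genes.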
